A study of Mus musculus with 12 samples.

Results

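The 10 genes described here are the 3 D cyclin genes Ccnd1, Ccnd2 and Ccnd3, the inhibitors Cdkn1b, Cdkn1c, Cdkn2a, Cdkn2b and Cdkn2c of cyclin-dependent kinases (CDKs), and the transcription factor genes E2f1 and Myc. They were taken by name from 19938 genes measured on whole-transcript arrays of mouse liver, and all 10 were measured. The livers came from 12 C57Bl/6J mice, an inbred laboratory strain, each given an adenovirus by vein at 10 weeks of age and examined in the fed state 7 days later. The virus of 6 mice expressed a scrambled short hairpin RNA (sh scramble), and that of the other 6 expressed a hairpin directed at Grb14 (sh Grb14), whose product binds the insulin receptor and restrains it. The strain, the adenoviral vector, the age and the fed state were common to both groups, and livers without virus were not analysed here. Each group received a single construct, so effects of the Grb14 hairpin on other transcripts cannot be told apart from those of lower Grb14.

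D cyclins are the cyclins that respond to growth signals: they bind CDK4 or CDK6, and the complexes phosphorylate the retinoblastoma protein and its relatives. Phosphorylation releases E2F factors, which turn on genes of DNA synthesis, cyclin E and cyclin A. The INK4 inhibitors (Cdkn2a, Cdkn2b, Cdkn2c) bind CDK4 and CDK6 and keep D cyclins off. The Cip/Kip inhibitors (Cdkn1b, Cdkn1c) bind cyclin E and cyclin A complexes with CDK2, and also bind D cyclin complexes. MYC is a growth-induced factor that drives ribosome production and entry into the cycle. Hepatocytes of adult liver are mostly quiescent and re-enter the cycle after injury or loss of tissue, when cyclin D1 is the D cyclin best known to rise in them.

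All levels are log2 values from RMA, a method that corrects background, normalises arrays and summarises probes, so a difference of 1 is a doubling. Array medians lay between 7.06 and 7.17 and array lower quartiles between 5.69 and 5.83, and no detection call was made. Grb14 was lower in every sh Grb14 liver (8.02 to 8.44) than in every sh scramble liver (10.08 to 10.25), a change of −1.91 (SE 0.059). Hepatocyte markers were present, with Alb, the albumin gene, at 13.92 and 13.95 in the 2 groups, near the top of the scale. Most other hepatocyte markers fell in sh Grb14 livers, as given at the end. Genes of other tissues stood out in some livers of both groups. The mean level of 6 pancreatic acinar genes was 12.62 in sh scramble 4, 8.95 in sh scramble 3, 8.86 in sh Grb14 4 and 8.89 in sh Grb14 6, against 7.00 to 7.10 in the other sh scramble livers and 6.64 to 7.52 in the other sh Grb14 livers. The mean of 6 skeletal muscle genes was 9.59 in sh scramble 6, against 6.80 to 7.18 in the other 11 livers. Those gene sets were chosen after the values were seen.

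Of the 10 genes, 9 were higher and Cdkn2a was lower in sh Grb14 livers. All 10 passed limma's test, which required a p under 0.05 after Benjamini-Hochberg adjustment across the 19938 genes. By that rule 65.3% of all genes passed, 25.8% higher and 39.5% lower, so passing does not by itself set a gene apart in these livers. Without sh scramble 4 and 6 all 10 still passed in the same directions. In that setting 11628 of all 19938 genes passed, 4880 higher and 6748 lower. With arrays centred on the median of the genes tested 8 of the 10 passed, 7 higher and 1 lower. Under that centring 16802 of all 19938 genes passed, 3859 higher and 12943 lower. In whole liver, more cells of a type and more RNA per cell cannot be told apart, and markers of several cell types moved with the groups, as given at the end. The median change of the 10 genes was 0.46, against −0.10 for all genes tested. Changes spanned −0.29 for Cdkn2a to 1.37 for Ccnd1, and Ccnd1 and Myc were the 2 that exceeded 1. The groups did not overlap in 7 of the 10 genes, 6 higher and 1 lower, against 41.2% of all genes (20.3% higher and 20.8% lower). Ccnd3, Cdkn2b and Myc were the 3 that overlapped.

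**Figure D1:**
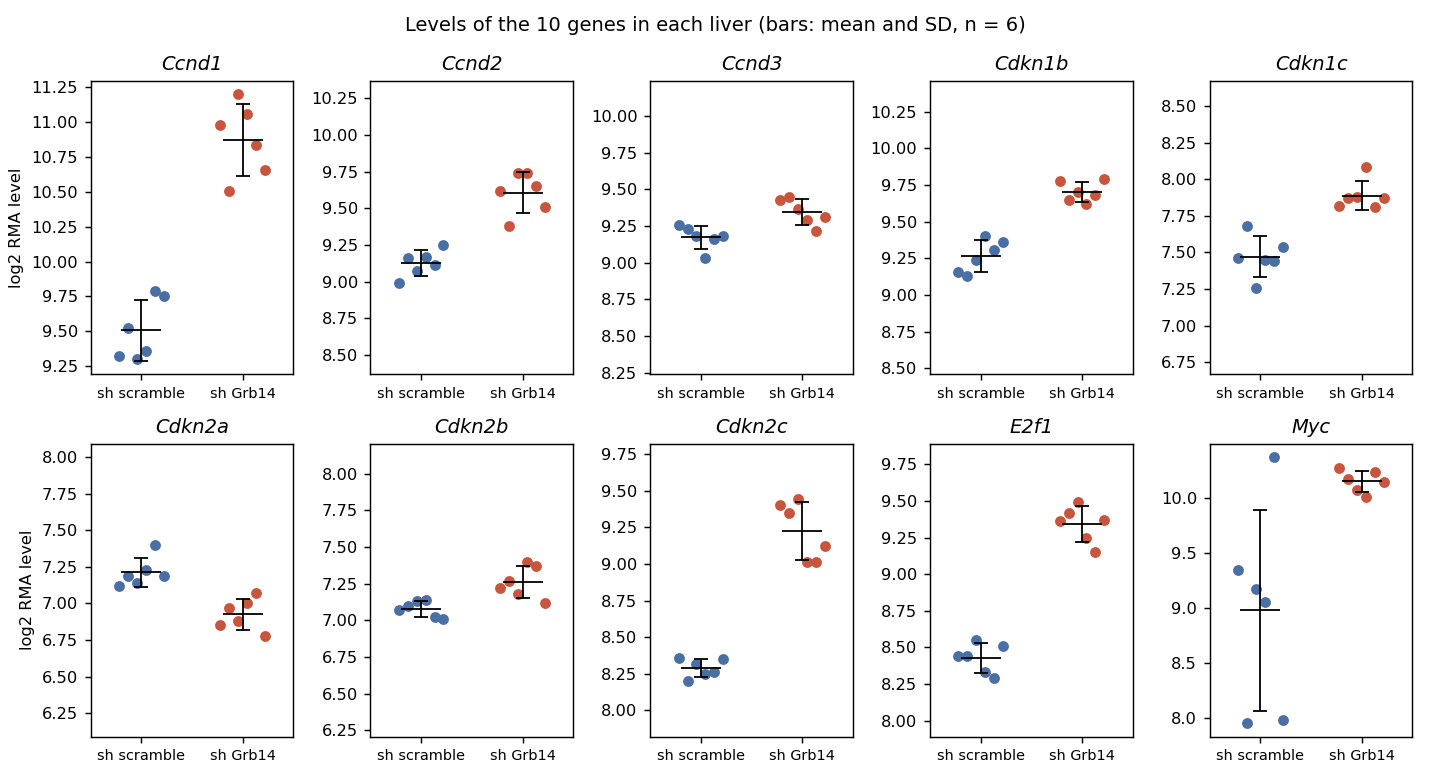
Log2 RMA level of each of the 10 genes in every liver, with the group mean and SD over 6 mice; each panel has its own axis, and the Myc axis is longer than the others. Ccnd1, Ccnd2, Cdkn1b, Cdkn1c, Cdkn2c and E2f1 separate upward and Cdkn2a downward, while the sh scramble values of Myc run from 7.95 to 10.37.

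Ccnd1, the D cyclin of growing hepatocytes, had the largest rise of the 10. Its level was 9.30 to 9.79 in sh scramble livers (median 9.44) and 10.51 to 11.20 in sh Grb14 livers (median 10.91). The lowest sh Grb14 liver, replicate 2, was thus above the highest sh scramble livers, replicates 5 and 6 at 9.79 and 9.75. The change was 1.37 (SE 0.11, 95% interval 1.12 to 1.61), a 2.58-fold rise (limma adjusted p = 1.61e-08; exact permutation p = 0.00216). No smaller exact p is possible with these 12 mice, which can be split 6 and 6 in 924 ways. Ccnd1 ranked 799 among all genes by size of rise.

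The other D cyclins rose less. Ccnd2, a D cyclin prominent in lymphocytes and several other cell types, lay between 8.99 and 9.25 (median 9.13) in sh scramble livers and between 9.38 and 9.74 (median 9.63) in sh Grb14 livers. The groups did not overlap, and the change was 0.48 (SE 0.063, 1.40-fold; limma adjusted p = 4.62e-06). Ccnd3, a D cyclin prominent in developing lymphocytes, lay between 9.03 and 9.26 (median 9.18) in sh scramble livers and between 9.22 and 9.45 (median 9.34) in sh Grb14 livers. Of the sh Grb14 livers 5 lay above all sh scramble livers, and replicate 5, at 9.22, lay among them. The change of Ccnd3 was 0.17 (SE 0.052; limma adjusted p = 0.00908; exact permutation p = 0.00649), and it did not pass after quantile normalization (0.10, adjusted p = 0.0726) or with arrays centred on the median of the genes tested (0.02, adjusted p = 0.663; range over all alternatives 0.00255 to 0.663). Relative to the median of all genes the changes of Ccnd1, Ccnd2 and Ccnd3 were 1.47, 0.58 and 0.27.

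The unequal change of the D cyclins was tested on the difference between 2 genes within each mouse. A constant shift of a whole array leaves that difference unchanged. Quantile normalization can alter it, and moved the result for Ccnd1 and Ccnd2 from 0.88 to 0.93. Ccnd1 rose by 0.88 more than Ccnd2 (SE 0.092) and by 1.20 more than Ccnd3 (SE 0.15), and in both pairs the groups did not overlap (exact permutation p = 0.00216, adjusted over 7 pairs 0.00303). Ccnd2 rose by 0.31 more than Ccnd3 (SE 0.10; exact permutation p = 0.0130, adjusted 0.0152), with overlap between the groups. The balance among the 3 transcripts therefore moved toward Ccnd1 in every sh Grb14 liver.

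**Figure D2:**
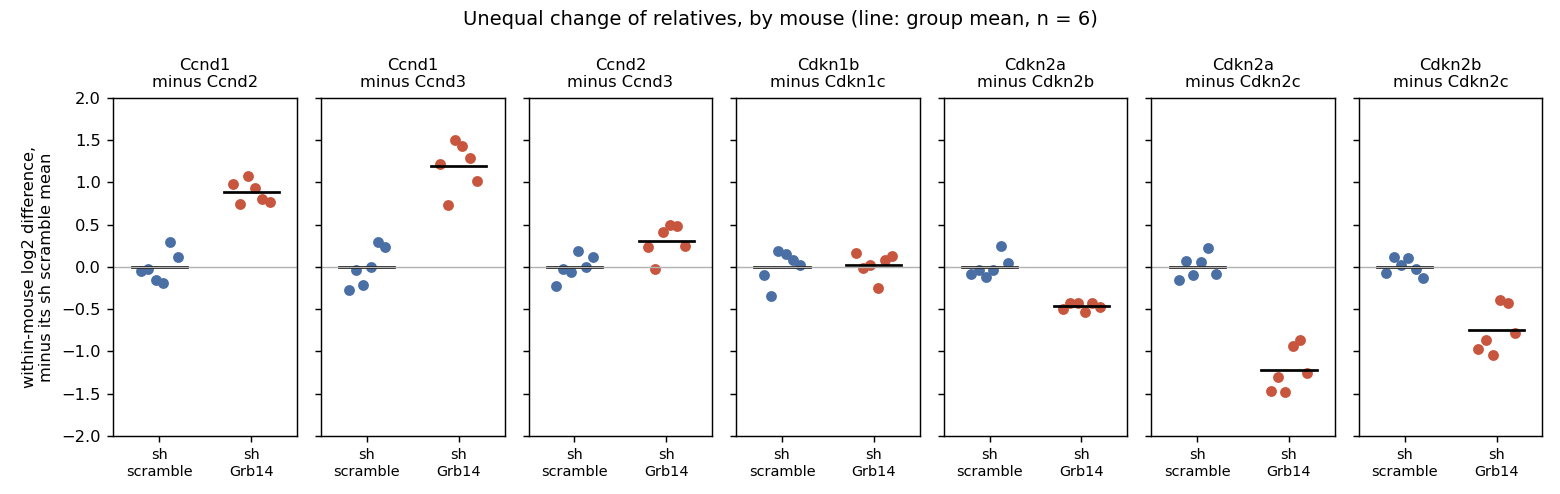
Within-mouse log2 difference of 2 related genes, set to 0 at its sh scramble mean, for 6 pairs with a shift and for Cdkn1b minus Cdkn1c, with a line at each group mean. The pairs Ccnd1 minus Ccnd2 and Ccnd1 minus Ccnd3 lie higher, and the 3 INK4 pairs lower, in every sh Grb14 liver, while Cdkn1b minus Cdkn1c overlaps throughout.

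Of the kinase partners of D cyclins, Cdk4 rose and Cdk6 did not pass the test. Cdk4 went from 11.29 ± 0.059 to 11.81 ± 0.063 (SD, n = 6 each), a change of 0.52 (SE 0.038). Cdk6 stood at 10.17 and 10.14, a change of −0.03 (SE 0.045; limma adjusted p = 0.620). Among 3 genes of the kinase that activates CDKs, Mnat1 rose by 0.24, Ccnh fell by 0.35 and Cdk7 had a change of 0.02 (limma adjusted p = 0.833).

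Both Cip/Kip inhibitor genes rose. Cdkn1b, which encodes p27, was at 9.13 to 9.40 (median 9.27) in sh scramble livers and at 9.62 to 9.79 (median 9.69) in sh Grb14 livers. All 6 sh Grb14 livers were above all sh scramble livers, and the change was 0.44 (SE 0.053, 1.36-fold; limma adjusted p = 1.81e-06). Another probe set of Cdkn1b gave a change of 0.59 (SE 0.13), from 6.11 to 6.66 in sh scramble livers to 6.58 to 7.39 in sh Grb14 livers, with overlap. Cdkn1c, which encodes p57 and is expressed from the maternal allele, was at 7.26 to 7.68 (median 7.46) in sh scramble livers and at 7.81 to 8.08 (median 7.87) in sh Grb14 livers. These groups did not overlap either, and the change was 0.42 (SE 0.069, 1.33-fold; limma adjusted p = 6.34e-05). The changes of Cdkn1b and Cdkn1c differed by 0.02 (SE 0.10; exact permutation p = 0.818, adjusted 0.818), which does not show that they are equal. The probe set that covers Cdkn1a, the third Cip/Kip gene, carries more than 1 gene symbol and is not reported.

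Genes related to both inhibitors moved in mixed directions. FOXO factors are known activators of Cdkn1b. A list of 11 FOXO factors and targets had 1 gene higher, 6 lower and 4 not past the test (median −0.28). The shares were 9.09% higher and 54.5% lower, against 25.8% and 39.5% of all genes. Foxo1 and Foxo3 each fell by 0.28, Klf15 fell by 1.38 (SE 0.070), Foxo4 by 0.54 and Foxo6 by 0.36, whereas Igfbp1, an insulin-repressed binding protein for growth factors, rose by 1.71 (SE 0.23). Of 12 imprinted growth genes measured, 6 were higher and 2 lower past the test (median 0.30). Their shares were 50% and 16.7%, against 25.8% and 39.5% of all genes. Igf2, a fetal growth factor, rose by 1.88 (SE 0.24), Mest by 1.5 (SE 0.13) and Igf2r by 1.04 (SE 0.061). Slc22a18 and Kcnq1, which lie in the same imprinted domain as Cdkn1c, fell by 0.21 and 0.18, and Phlda2 of that domain had a change of 0.19 that did not pass (limma adjusted p = 0.105).

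The INK4 genes moved apart. Cdkn2c, which encodes p18, was at 8.20 to 8.36 (median 8.29) in sh scramble livers and at 9.01 to 9.44 (median 9.24) in sh Grb14 livers. Replicates 1, 2 and 3 of sh Grb14 lay between 9.35 and 9.44 and replicates 4, 5 and 6 between 9.01 and 9.12, all above the sh scramble livers. The change was 0.93 (SE 0.077, 1.91-fold; limma adjusted p = 1.36e-08). Cdkn2b, which encodes p15, was at 7.01 to 7.14 (median 7.09) in sh scramble livers and at 7.12 to 7.40 (median 7.25) in sh Grb14 livers. Of the sh Grb14 livers 5 lay above all sh scramble livers, and replicate 6, at 7.12, lay within their range. The change was 0.18 (SE 0.059; limma adjusted p = 0.0136; exact permutation p = 0.00649), and with arrays centred on the median of the genes tested it was 0.04 and did not pass (adjusted p = 0.590; range over all alternatives 0.00724 to 0.590).

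Cdkn2a was the 1 gene of the 10 that fell. It was at 7.12 to 7.40 (median 7.19) in sh scramble livers and at 6.78 to 7.07 (median 6.92) in sh Grb14 livers, so the groups did not overlap. The change was −0.29 (SE 0.065, 95% interval −0.43 to −0.15; limma adjusted p = 0.00117; exact permutation p = 0.00216), 81.9% of the sh scramble level, and −0.19 relative to the median of all genes. Cdkn2a ranked 4085 among all genes by size of fall. Levels of Cdkn2a and Cdkn2b lay near the array medians, and no detection call was made. Within mice, Cdkn2a changed by 0.47 less than Cdkn2b (difference −0.47, SE 0.057), by 1.22 less than Cdkn2c (difference −1.22, SE 0.12), and Cdkn2b by 0.75 less than Cdkn2c (difference −0.75, SE 0.12). The groups did not overlap in any of these 3 pairs (exact permutation p = 0.00216, adjusted 0.00303).

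Cdkn2a and Cdkn2b are neighbours on chromosome 4 and moved in opposite directions, and Cdkn2a has 2 starts: the upstream one gives the transcript of p19ARF, an activator of p53, and the downstream one that of p16INK4a. The single probe set of Cdkn2a is annotated with transcripts of the gene as a whole, so its fall cannot be assigned to either product. The 250 bases before each start are shown for these neighbours, and those before the upstream of 2 starts for Cdkn2c, the INK4 gene that rose most, from RefSeq on GRCm38.p6, 5′ to 3′ on the minus strand. Capitals mark matches on either strand to an E2F motif (TTTCCCGC, TTTCGCGC, TTTGCCGC or TTTGGCGC), a cyclic AMP response element (TGACGTCA) or a GC box (GGGCGG), and no 2 matches overlap.
Cdkn2a upstream start, chr4:89294620-89294869: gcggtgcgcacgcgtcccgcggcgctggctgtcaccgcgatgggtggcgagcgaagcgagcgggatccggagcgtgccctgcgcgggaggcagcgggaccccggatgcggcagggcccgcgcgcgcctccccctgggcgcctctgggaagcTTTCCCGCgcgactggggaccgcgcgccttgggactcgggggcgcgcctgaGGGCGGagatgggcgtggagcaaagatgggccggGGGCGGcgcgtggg
Cdkn2a downstream start, chr4:89282193-89282442: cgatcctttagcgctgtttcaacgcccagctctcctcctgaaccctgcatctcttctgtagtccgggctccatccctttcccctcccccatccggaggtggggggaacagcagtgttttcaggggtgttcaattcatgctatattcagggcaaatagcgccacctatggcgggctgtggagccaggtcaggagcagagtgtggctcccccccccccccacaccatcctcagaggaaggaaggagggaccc
Cdkn2b, chr4:89311033-89311282: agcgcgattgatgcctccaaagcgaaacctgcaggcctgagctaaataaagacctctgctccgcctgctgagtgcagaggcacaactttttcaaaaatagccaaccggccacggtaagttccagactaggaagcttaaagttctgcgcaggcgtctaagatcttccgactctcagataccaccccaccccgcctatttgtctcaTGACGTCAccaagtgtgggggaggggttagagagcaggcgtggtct
Cdkn2c upstream start, chr4:109666757-109667006: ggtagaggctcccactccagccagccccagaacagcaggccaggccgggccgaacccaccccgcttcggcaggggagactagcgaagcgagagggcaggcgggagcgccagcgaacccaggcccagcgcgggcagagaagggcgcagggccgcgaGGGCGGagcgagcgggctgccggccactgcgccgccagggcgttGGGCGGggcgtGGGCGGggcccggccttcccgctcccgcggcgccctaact

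The upstream Cdkn2a window held 1 E2F match and 2 GC boxes, and the downstream Cdkn2a window held 0 of either. The Cdkn2b window held 1 cyclic AMP response element and 0 GC boxes, and the upstream Cdkn2c window held 3 GC boxes. The window before the downstream Cdkn2c start, which is not printed, held 0 matches to any of these motifs. Among 32851 RefSeq windows of the same length, 1.86% held the E2F motif, 1.55% the cyclic AMP response element and 32.7% a GC box. Windows were found for 6 of the 10 genes, 9 windows in all, and 1 of the 9 held the E2F motif. Whether each RefSeq start, that of E2f1 included, is the main start of its gene was not checked, so windows can miss a promoter. A FOXO motif (TGTTTAC) and an E-box (CACGTG) were also searched, and the printed windows held neither. Of the 9 windows, 1 of Ccnd3 held the FOXO motif, that of Cdkn1b did not, and none held the E-box. Among all windows 3.17% held the FOXO motif and 6.02% the E-box. These matches describe letters and not binding, which was not measured.

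Regulators of the Cdkn2a locus also moved both ways. Of 13 such genes 8 were higher and 3 lower past the test (median 0.19), 61.5% and 23.1% against 25.8% and 39.5% of all genes. Among those that rose, Ets2 changed by 1.52 (SE 0.059), Id1, which antagonises activation of Cdkn2a by ETS factors, by 1.47 (SE 0.11) and Ezh2, the methyltransferase of Polycomb repression and a gene of proliferating cells, by 1.41 (SE 0.051). Tbx3, a repressor of the locus, fell by 0.88 (SE 0.14), and the Polycomb genes Cbx7 and Cbx8 fell by 0.69 (SE 0.074) and 0.40 (SE 0.071). Bmi1, a Polycomb repressor of the locus, stood at 8.79 in both groups (change 0.00, limma adjusted p = 0.996). Of the other inhibitors, Cdkn2d, the fourth INK4 gene, had a change of 0.17 that did not pass (limma adjusted p = 0.0701), and Cdkn3, a phosphatase of CDKs that peaks in dividing cells, rose by 2.13 (SE 0.11).

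E2f1, the E2F activator released when retinoblastoma proteins are phosphorylated, was at 8.29 to 8.55 (median 8.44) in sh scramble livers and at 9.15 to 9.49 (median 9.37) in sh Grb14 livers. The groups lay apart, with spreads of similar size (SD 0.099 and 0.12). The change was 0.91 (SE 0.062, 1.88-fold; limma adjusted p = 1.22e-09), the smallest adjusted p of the 10 genes. The other E2F and DP genes, 9 in all, had 6 higher and 1 lower past the test (median 0.52). These shares, 66.7% and 11.1%, compare with 25.8% and 39.5% of all genes. E2f8 rose by 0.92 (SE 0.17) and E2f7 by 0.72 (SE 0.048), both repressors that act late in S phase, and Tfdp1, a partner of E2F proteins, by 0.68 (SE 0.051). E2f5, a repressor of quiescent cells, fell by 0.22 (SE 0.065). Of the pocket proteins, Rbl1 (p107), itself an E2F target, rose by 2.26 (SE 0.068) and Rb1 by 0.72 (SE 0.076), whereas Rbl2 (p130), the pocket protein of quiescent cells, fell by 0.45 (SE 0.045).

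Genes that act after E2F were mostly higher. In a list of E2F targets 16 of 17 measured genes rose (94.1%, against 25.8% of all genes), and the median change was 1.31, beside 0.46 for the 10 genes. Mcm6, of the replicative helicase, rose by 2.49 (SE 0.093), and the ribonucleotide reductase genes Rrm2 and Rrm1 rose by 1.80 (SE 0.14) and 1.78 (SE 0.086). Tk1 did not pass, with a change of −0.08 (limma adjusted p = 0.118), and where its probe set lies in the genome was not checked. Of 6 genes for cyclin E, cyclin A and their kinase, 5 rose: Ccna2 by 3.04 (SE 0.089), Ccne1 by 2.95 (SE 0.088) and Ccne2 by 2.40 (SE 0.097), with Cdc25a and Cdk2 at 1.53 and 0.99. Ccna1, a cyclin of germ cells, had a change of −0.08 (limma adjusted p = 0.330).

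**Figure D3:**
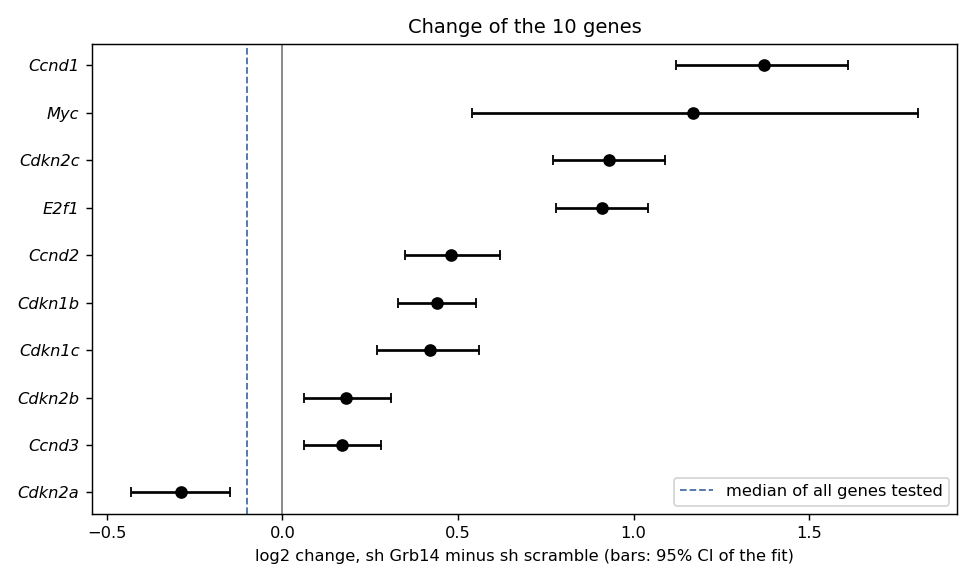
Log2 change (sh Grb14 minus sh scramble) of the 10 genes with the 95% interval of the limma fit; the dashed line is the median change of all genes tested, −0.10. Ccnd1 leads at 1.37, the Myc interval is the widest (0.54 to 1.81), and Cdkn2a alone lies below 0.

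Myc differed from the other 9 in its spread among sh scramble livers. Its levels there were 9.34, 7.95, 9.17, 9.05, 10.37 and 7.98 in replicates 1 to 6, a mean of 8.98 ± 0.91 (SD, n = 6). In sh Grb14 livers they were 10.27, 10.17, 10.07, 10.01, 10.23 and 10.14, a mean of 10.15 ± 0.096 (SD, n = 6). Every sh Grb14 liver was above 5 of the sh scramble livers, and replicate 5 of sh scramble, at 10.37, was above them all. The SD was 9.52 times larger in sh scramble livers, and Myc ranked 48 of 19938 genes by that SD, whereas the other 9 genes had SD ratios of 0.317 to 1.59. The change was 1.17 (SE 0.30, 95% interval 0.54 to 1.81, 2.26-fold; limma adjusted p = 0.00275; exact permutation p = 0.0152). The limma fit assumes 1 spread for both groups. Without sh scramble 5 the change was 1.45 (adjusted p = 2.79e-05), and without sh scramble 4 and 6 it was 0.94 (adjusted p = 0.0139), the ends of the range over all alternatives.

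Partners and targets of MYC did not follow a single direction. The MYC and MAX network, 10 genes, had 4 higher and 4 lower past the test (median −0.02). Each share was 40%, against 25.8% higher and 39.5% lower of all genes. Max, the obligate partner of MYC, rose by 0.77 (SE 0.061) and Mxd1, an antagonist that also binds MAX, by 0.42 (SE 0.053), while Mxi1, another antagonist, fell by 0.74 (SE 0.047), Mlx, a partner of related factors, by 0.56 (SE 0.042), and Mycn, a MYC relative, by 0.30 (SE 0.095). Of 18 MYC targets 7 were higher and 3 lower past the test (median 0.08), 38.9% and 16.7% against 25.8% and 39.5% of all genes. The nucleolar genes Nop58, Npm1 and Nop56 rose by 1.03 (SE 0.13), 0.74 (SE 0.082) and 0.66 (SE 0.080), whereas Polr1b, of RNA polymerase I, fell by 0.33 (SE 0.050). Odc1, the polyamine enzyme often used as a MYC target, had a change of −0.11 (limma adjusted p = 0.309).

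Genes whose products turn over these proteins were mixed as well, with 3 of 10 higher and 2 lower past the test (median 0.02). These shares, 30% and 20%, compare with 25.8% and 39.5% of all genes. Cks1b and Skp2, which together mark p27 for degradation, rose by 1.57 (SE 0.057) and 0.52 (SE 0.049), beside the rise of the p27 transcript. Fbxw7, which marks MYC and cyclin E, rose by 0.22 (SE 0.061). Fbxo31, which marks cyclin D1, fell by 1.35 (SE 0.073), and Skp1, a shared subunit of these ligases, fell by 0.33 (SE 0.074). Ambra1, which also directs loss of D cyclins, had a change of −0.06 (limma adjusted p = 0.186).

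**Figure D4:**
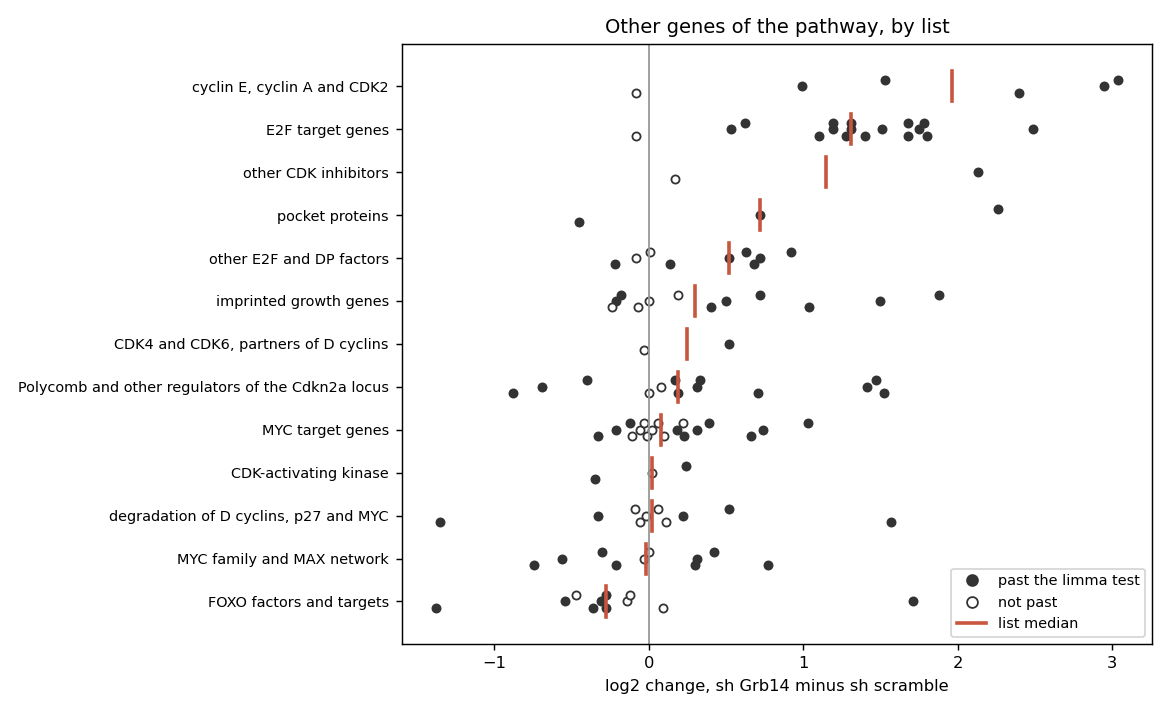
Log2 change (sh Grb14 minus sh scramble) of each gene in 13 lists around the 10 genes; filled points passed the limma test, open points did not, and the bar is the list median. The cyclin E and A list and the E2F targets lie furthest right, with medians of 1.96 and 1.31, and the FOXO list furthest left, at −0.28.

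Markers of other cell types moved with these changes. Their counts past the test stand beside 25.8% higher and 39.5% lower of all genes. All 10 measured proliferation markers rose, and the log2 of their summed level went from 10.63 to 10.87 in sh scramble livers to 12.95 to 13.40 in sh Grb14 livers, with Ccnb2 and Mki67 up by 3.04 and 2.95. All 10 measured markers of monocytes and recruited macrophages rose (summed 11.63 to 11.96 against 13.16 to 13.58), led by Gpnmb and Itgax at 4.79 and 2.41. Of 9 T cell markers 8 rose and Cd4 fell by 0.66 (summed 10.43 to 10.61 against 11.88 to 12.26), with Cd3g up by 2.95 and Cd8b1 by 2.05. Of 8 markers of NK and cytotoxic cells 6 rose (9.38 to 9.52 against 11.60 to 12), with Gzmb and Nkg7 up by 3.46 and 3.24. The defining NK cell markers Ncr1 and Klrb1c did not pass, with changes of 0.16 and 0.05 (limma adjusted p = 0.0833 and 0.457). Of 8 B and plasma cell markers 4 rose and 1 fell, and the summed ranges overlapped (9.55 to 9.86 against 9.71 to 9.96), with Cd79b and Ms4a1 up by 0.40 and 0.39.

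Among neutrophil markers 5 of 8 rose (9.41 to 9.55 against 10.15 to 10.52), with Cxcr2 up by 2.36 and Retnlg by 1.77. Among Kupffer cell markers 3 of 8 rose (12.16 to 12.61 against 13.41 to 13.70), with Cd5l up by 1.79 and Adgre1 by 1.64, while the defining markers Clec4f and Timd4 did not pass. Stellate cell and fibroblast markers rose in 7 of 11 and fell in 2 (13.41 to 13.59 against 13.70 to 14.10), with Acta2 up by 2.46 and Col1a1 by 1.76. The stellate cell markers Reln and Lrat fell by 0.35 and 0.33, and Hand2 and Dcn did not pass. Of 7 measured cholangiocyte and progenitor markers 3 rose (10.36 to 10.51 against 11.25 to 11.51), Cd24a and Prom1 by 2.15 each, whereas the defining marker Krt19 had a change of −0.08 (limma adjusted p = 0.628). Endothelial markers split, 5 higher and 5 lower, with overlapping summed ranges (13.26 to 13.41 against 13.20 to 13.38), Lyve1 up by 1.14 and Clec4g down by 0.85 (change −0.85). Of 11 hepatocyte markers 9 fell (16.64 to 16.72 against 16.30 to 16.46), with Tat down to 11.99 from 13.37 and Ttc36 to 11.43 from 12.32. The part of these cell types in the changes of Ccnd1, Ccnd2, Ccnd3, the inhibitors, E2f1 and Myc was not tested.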

How the data were processed

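The deposited table held log2 expression values of 35556 probe sets on 12 arrays, 1 per mouse. RMA and the software Partek are named, with no version, role or order, in the submitters' processing notes, and the genome build of the probes is not given in the sources used here. Per the labels' protocols, each Affymetrix array received biotin-labelled cDNA made from 100 ng of Trizol-extracted total RNA. No scan date or batch was given, so a batch that followed the groups cannot be told apart from them.

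Gene names came from the platform annotation, in which 21789 probe sets had 1 symbol, 1621 had several and 12146 had no listed gene. Only probe sets with 1 symbol were used, the one with the highest mean for each of 999 genes with several. For 19938 genes a model was fitted in limma 3.58.1 under R 4.3.3 (lmFit, eBayes with an intensity trend), all 12 arrays in the fit, with no covariate or filter. Changes are sh Grb14 minus sh scramble, with the SE of the fit. The number of arrays limits the precision. Replicates were numbered within groups in accession order, and each is a separate mouse by its label. Pairs of relatives were compared by two-sided exact permutation tests of the within-mouse difference, whose SE comes from the SDs of the 2 groups. The fit was tested on simulated data. The alternatives were array centring, quantile normalization, no intensity trend, array weights, a filter on dim genes, the mean of a gene's probe sets, and leaving out arrays. Centring on the genes tested and leaving out sh scramble 4 and 6 together were added after seeing the data.

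The 10 genes, the lists and the tests were chosen with earlier results of these data known. Genes named from a list are those with the largest rises and falls past the test, up to 3 each way, every gene of the shortest lists, and some that did not pass. A few others (Foxo1, Foxo3, Cdk2 and Cdc25a) were named for their known role after their values were seen.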

Additional observations from a re-analysis of the deposited data

Results flagged for a closer look

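In sh Grb14 livers the highest Cdkn1c level, 8.08 in replicate 4, stood apart from the other 5, which lay between 7.81 and 7.88. Its gap to the nearest value was 0.753 of the group's range, above Dixon's critical value at 95% for 6 samples. It was the 1 such value among 20 groups of values (10 genes in 2 groups), and chance flags about 1 in 20 groups. Without this liver the change of Cdkn1c was 0.38, against 0.42 with it. The same liver had a mean acinar level of 8.86. Cdkn1c was at 7.87 in sh Grb14 6, where that level was 8.89, and at 7.45 in sh scramble 4, where it was 12.62. The part of acinar RNA in the high value was not tested.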

How the results depend on the processing

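The 10 genes gave 199 comparisons with alternatives, and 196 kept the direction and the side of the threshold. The exceptions were Ccnd3 after quantile normalization (0.10) and with arrays centred on the median of the genes tested (0.02), and Cdkn2b with that centring (0.04). That centring moved the median change of all genes from −0.10 to −0.25. It left 8 of the 10 genes past the test, 7 higher and 1 lower, and turned 5144 higher and 7868 lower genes into 3859 and 12943, so small changes depend on the scaling. Of the pair tests, the difference between Cdkn1b and Cdkn1c ranged from −0.05 to 0.08 when single mice were left out, changing sign without sh scramble 2 (−0.05) or sh Grb14 1 (−0.01), and passed under no setting tried. The other 6 pairs kept direction and call under each setting run. The filter on dim genes removed Cdkn2a, which has no value there. No paired analysis was possible because the replicate numbers come from accession order and link no mice. Cdkn2a and Cdkn2b lay near the array medians with no detection call, so their changes can be understated. The median change was −0.03 among genes above the median of all probe sets, against −0.10 for all genes tested. Dimmer genes thus leaned lower in sh Grb14 livers, and the part of this in the fall of Cdkn2a was not tested.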

Other observations

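Several other genes varied widely among sh scramble livers, some with the highest level in the same liver as Myc and some not. They were picked after their values were seen from the 60 genes with the largest sh scramble SD. Cish and Socs2 encode feedback inhibitors of growth hormone and cytokine signalling, and Foxq1, Onecut1 and Bcl6 encode transcription factors. The liver with the highest Myc, sh scramble 5, was also the highest in Cish (9.68), Socs2 (11.34) and Foxq1 (11.09). Among sh scramble livers the acute phase genes Orm2 and Saa2 were highest there too (11.44 and 10.56). Next came sh scramble 6, with 10.3 and 10.31. Of the livers with the lowest Myc, sh scramble 6 was the lowest in Cish (7.47) and Socs2 (8.86), and sh scramble 2 was the lowest in Foxq1 (8.76) but stood at 11.06 in Socs2. Onecut1 and Bcl6 had another order: Onecut1 was highest in sh scramble 3 (11.58), with 11.29 in sh scramble 5, 11.42 in sh scramble 2 and 9.15 in sh scramble 6, and Bcl6 was highest in sh scramble 6 (10.43), with 9.50 in sh scramble 5. The liver sh scramble 6 is the one with the skeletal muscle signal, whose part in these values was not tested. In sh Grb14 livers Myc lay at the top of its sh scramble range, whereas Cish (7.84 to 8.08) and Socs2 (8.75 to 9.10) lay near the bottom of theirs.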
